A study of Mus musculus with 12 samples.

Results

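Levels are given here for 8 genes of the engulfment machinery through which astrocytes and other phagocytes take up synapses, myelin debris and dying cells. They are 3 receptors (Megf10, Mertk and Axl), 4 secreted bridging proteins (Mfge8, Edil3, Gas6 and Pros1) and 1 cytoplasmic adaptor (Gulp1). The 8 were chosen by name from the 55401 gene rows of a count table, with earlier results of these data known. All 8 passed the filter on low counts that left 12613 genes for testing. The libraries, titled as astrocytes, came from cells sorted out of the cortex or the hippocampus of mice. These mice carried CD51-Flp and the Flp-dependent reporter Rosa-CAG-FSF-tdTomato. Cells with both tdTomato and GFP form the class called CD51+, and cells with GFP but no tdTomato form the class called CD51-. Each of the 4 combinations of region and class had 3 libraries, 12 in all. The age and sex of the mice and the transgene behind the GFP are not given in the sources used here, tdTomato marks any cell in which Flp has ever been active, and all 4 groups carry the same alleles. Groups follow the sample titles, while the library names (with G under the CD51+ titles and GT under the CD51- titles) could be read the other way round, which would turn the sign of every difference between the classes. No label ties a library to an animal, so each p-value below is set against a spread that may be partly technical.

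Engulfment starts when a dying cell or a tagged synapse exposes phosphatidylserine, a lipid normally kept on the inner side of the membrane. Mfge8 and Edil3 (also called Del-1) bind that lipid with their discoidin domains and bind alpha-v integrins with an RGD motif. Gas6 and Pros1 (protein S) bind it with their Gla domains and activate the receptor tyrosine kinases Tyro3, Axl and Mertk, together called the TAM receptors. Gas6 is known as a ligand of all of these kinases, and Pros1 chiefly of Tyro3 and Mertk. Megf10 is a single-pass receptor, a relative of Draper of flies and CED-1 of worms, and Gulp1 is the mammalian counterpart of the worm adaptor CED-6 that acts behind that receptor. In mouse brain, Megf10 and Mertk are known for synapse pruning by astrocytes.

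CD51, the protein after which the classes are named, is integrin alpha-v. The sort itself was on GFP and on the tdTomato that CD51-Flp switches on, not on CD51 protein. Of the 8 genes Mfge8 and Edil3 encode proteins that bind alpha-v integrins directly. Their binding motif is therefore shown, as the coding sequence around the arginine, glycine and aspartate codons, read from the mm10 genome with GENCODE vM21 transcripts, 5′ to 3′ on the strand of the gene. Capitals mark the 9 bases of the 3 codons.
Mfge8: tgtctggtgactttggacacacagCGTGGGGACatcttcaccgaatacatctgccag
Edil3: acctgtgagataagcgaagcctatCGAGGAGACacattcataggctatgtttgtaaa
In Mfge8 the codons lie at chr7:79145308-79145316 on the minus strand, in exon 3 of 10, and begin at codon 87 of transcript Mfge8-201. In Edil3 they lie at chr13:89042491-89042499 on the plus strand, in exon 4 of 11, and begin at codon 96 of transcript Edil3-202. The motif occurred in frame once in each of the 2 protein-coding transcripts of Mfge8 and the 3 of Edil3, so no annotated protein-coding form of either lacks it. Counts per gene do not separate these transcripts.

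Libraries held 4.35e6 to 12.85e6 counted read pairs. Mitochondrial genes took 36.5% to 71.1% of the counts in the CD51+ libraries and 20.2% to 38.6% in the CD51- libraries. Cortex CD51+ replicate 3 stood apart, with 58.4% of its counts in mitochondrial ribosomal RNA against at most 3.54% in any other library. The labelled cell type was checked with 20 pan-astrocyte genes, all of which had counts in all 4 groups. Their summed level was 67621 to 88599 CPM in cortex CD51+ and 54798 to 71317 CPM in hippocampus CD51+, against 6213 to 16818 and 16052 to 19599 CPM in the CD51- libraries of the same regions (CPM are counts per 1e6 of the TMM-scaled library size). Microglial genes summed to 236 to 2010 CPM in CD51+ and 6468 to 14338 CPM in CD51-, led by Csf1r in 3 of the 4 groups. Oligodendrocyte genes, led by Mbp in every group, summed to 1257 to 5014 CPM in CD51+ and 6918 to 64022 CPM in CD51-. In every cortex CD51- library, at 33247 to 64022 CPM, they exceeded the pan-astrocyte sum, as in hippocampus CD51- replicates 1 and 2. The microglial sum also exceeded it in cortex CD51- replicates 1 and 2. Sums over different lists are not shares of cells, but these markers do not show the CD51- class to be mainly astrocytes. The name follows the titles. Border macrophage genes summed to at most 18.6 CPM in CD51+, with Cd163 and Lyve1 at 0, and 96.8 to 424 CPM in CD51-. Microglia and macrophages transcribe several of the 8 genes as well. The part of these marker levels and of the mitochondrial share in the differences between the classes was not tested, and with bulk libraries fewer cells of a type and less RNA per cell cannot be told apart.

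**Figure D1:**
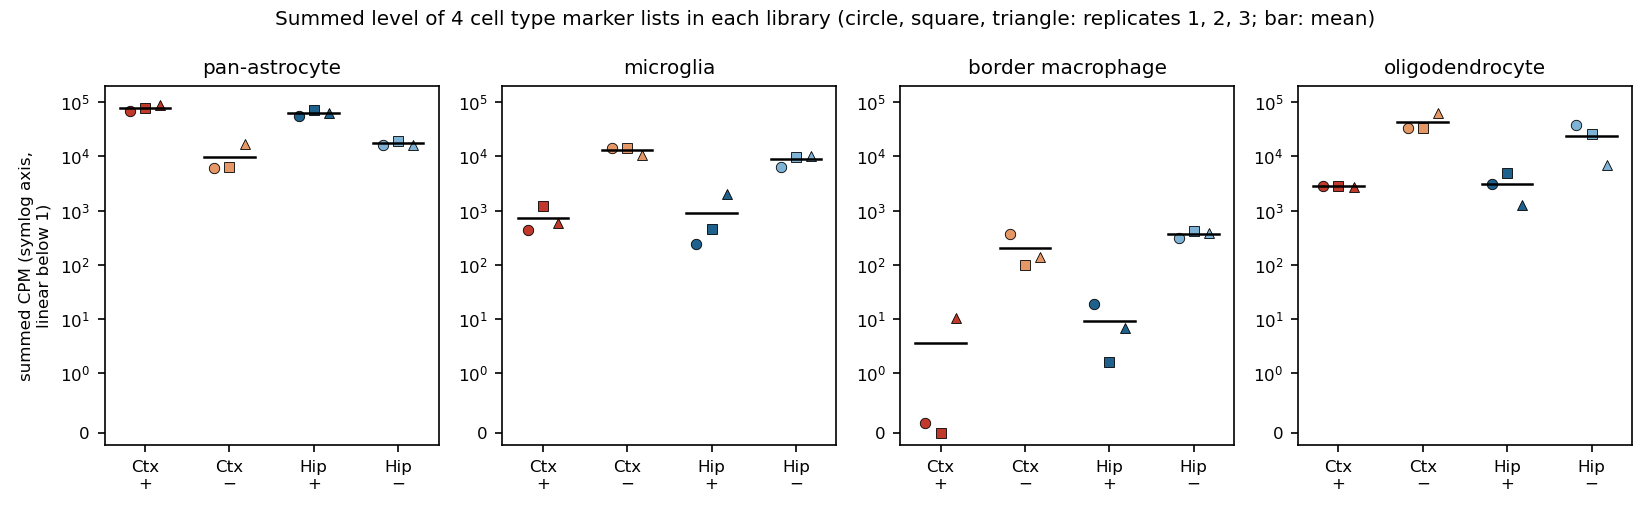
Summed CPM (symlog axis, linear below 1) of the pan-astrocyte, microglial, border macrophage and oligodendrocyte marker lists in each of the 12 libraries, grouped by region and labelled class, with the group mean as a bar. The pan-astrocyte sum was higher in every CD51+ library than in every CD51- library, and the other 3 sums were lower.

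In cortex, Megf10 and Axl were higher in the libraries labelled CD51+, each about 16 times the level in CD51-. None of the 8 genes passed the test as lower. The other 6 genes did not pass the test. The median log2 fold change of the 8 was 2.40, against -0.03 over all 12613 tested genes. Of all tested genes 11.3% passed in this comparison (5.05% higher and 6.27% lower), beside 2 of the 8 here. The test, used throughout for differences between groups, was edgeR's quasi-likelihood F test on the counts of all 12 libraries, with Benjamini-Hochberg adjustment over all tested genes and a threshold of 0.05.

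Megf10 (ENSMUSG00000024593.15, chr18:57133090-57297467 in mm10, plus strand), the receptor, was at 285, 235 and 110 CPM in cortex CD51+ (mean 210 ± 90.3 SD, n = 3) and at 11.1, 19.3 and 8.46 CPM in cortex CD51- (12.9 ± 5.66). Every CD51+ library was above every CD51- library, and the lowest of them was still several times the highest of the other class. That is a 16.2-fold difference, or 4.02 ± 0.92 on the log2 scale (SE; edgeR adjusted p = 0.00644). In hippocampus Megf10 stood at 59.0, 265 and 142 CPM in the CD51+ libraries (155 ± 103) and at 8.13, 69.6 and 27.9 CPM in CD51- (35.2 ± 31.4). There the groups overlapped, because the lowest CD51+ library lay below the highest CD51- library, and the log2 fold change of 2.14 ± 0.85 had an unadjusted p of 0.0184 and an edgeR adjusted p of 0.161. Replicate by replicate, hippocampal libraries ranged more widely in both classes than the cortical ones.

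Axl (ENSMUSG00000002602.16, chr7:25757273-25788705, minus strand), the TAM receptor for which Gas6 is the known ligand, was at 101, 516 and 193 CPM in cortex CD51+ (270 ± 218) and at 6.83, 2.16 and 41.3 CPM in cortex CD51- (16.8 ± 21.4). The groups did not overlap, but 1 library in each stood far above its partners: replicate 2 of CD51+ and replicate 3 of CD51-. That is a 16.1-fold difference, or 4.01 ± 1.0 on the log2 scale (edgeR adjusted p = 0.0117). Without cortex CD51+ replicate 2 it was 3.13 with an adjusted p of 0.0791, and without cortex CD51- replicate 3 it was 5.85 with an adjusted p of 0.000798. In hippocampus Axl was at 105, 59.6 and 99.2 CPM in CD51+ (87.9 ± 24.7) and at 24.5, 70.9 and 46.2 CPM in CD51- (47.2 ± 23.2), which overlap, with a log2 fold change of 0.90 ± 0.89 (adjusted p = 0.684).

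Mertk (ENSMUSG00000014361.5, chr2:128698956-128802894, plus strand), the TAM receptor known from both astrocytes and macrophage-lineage cells, had the highest mean per kilobase of the 8 genes over the 12 libraries and was the only receptor with a negative log2 fold change in both regions. In cortex it was at 452, 233 and 735 CPM in CD51+ (473 ± 252) and at 594, 919 and 588 CPM in CD51- (700 ± 189). The hippocampal values were 369, 142 and 205 CPM in CD51+ (238 ± 117) and at 272, 347 and 833 CPM in CD51- (484 ± 304). The classes overlapped in both regions, with log2 fold changes of -0.57 ± 0.59 in cortex (edgeR adjusted p = 0.560) and -1.02 ± 0.60 in hippocampus (adjusted p = 0.389). Across all 12 libraries it stayed between 142 and 919 CPM, the narrowest span of the 3 receptors as a ratio of highest to lowest.

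The balance of the TAM receptors was read from their shares. Per kilobase of exon, Axl made up 16.1%, 65.6% and 18.4% of the summed TAM receptor level (Tyro3, Axl and Mertk) in cortex CD51+, and 0.981%, 0.202% and 5.57% in cortex CD51-. In hippocampus its share was 19.7%, 26.3% and 26.8% in CD51+ and 7.18%, 14.9% and 4.56% in CD51-. The share was higher in every CD51+ library than in every CD51- library of either region, while Mertk was the larger part in 11 of the 12 libraries, cortex CD51+ replicate 2 being the exception. Tyro3, the other TAM receptor, made up at most 8.88% in any library. With 3 against 3 libraries an exact test of 1 region cannot give a two-sided p under 0.1, and these shares are given as a description.

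Gulp1 (ENSMUSG00000056870.9, chr1:44551511-44796838, plus strand), the adaptor, was at 17.3, 9.88 and 45.1 CPM in cortex CD51+ (24.1 ± 18.5) and at 0, 0.120 and 5.98 CPM in cortex CD51- (2.03 ± 3.42). All 3 CD51+ libraries were higher, yet the log2 fold change of 3.57 ± 1.67 had an unadjusted p of 0.0429 and an edgeR adjusted p of 0.143. Without cortex CD51- replicate 3, which holds nearly all the counts of its group, it was 8.39 with an adjusted p of 0.0125, and DESeq2 gave 3.56 with an adjusted p of 0.0388. The hippocampal classes overlapped, at 43.1, 22.5 and 24.5 CPM for CD51+ (30.0 ± 11.4) and 59.9, 68.9 and 4.17 CPM for CD51- (44.3 ± 35.1), with a log2 fold change of -0.56 ± 1.5 (adjusted p = 0.906).

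**Figure D2:**
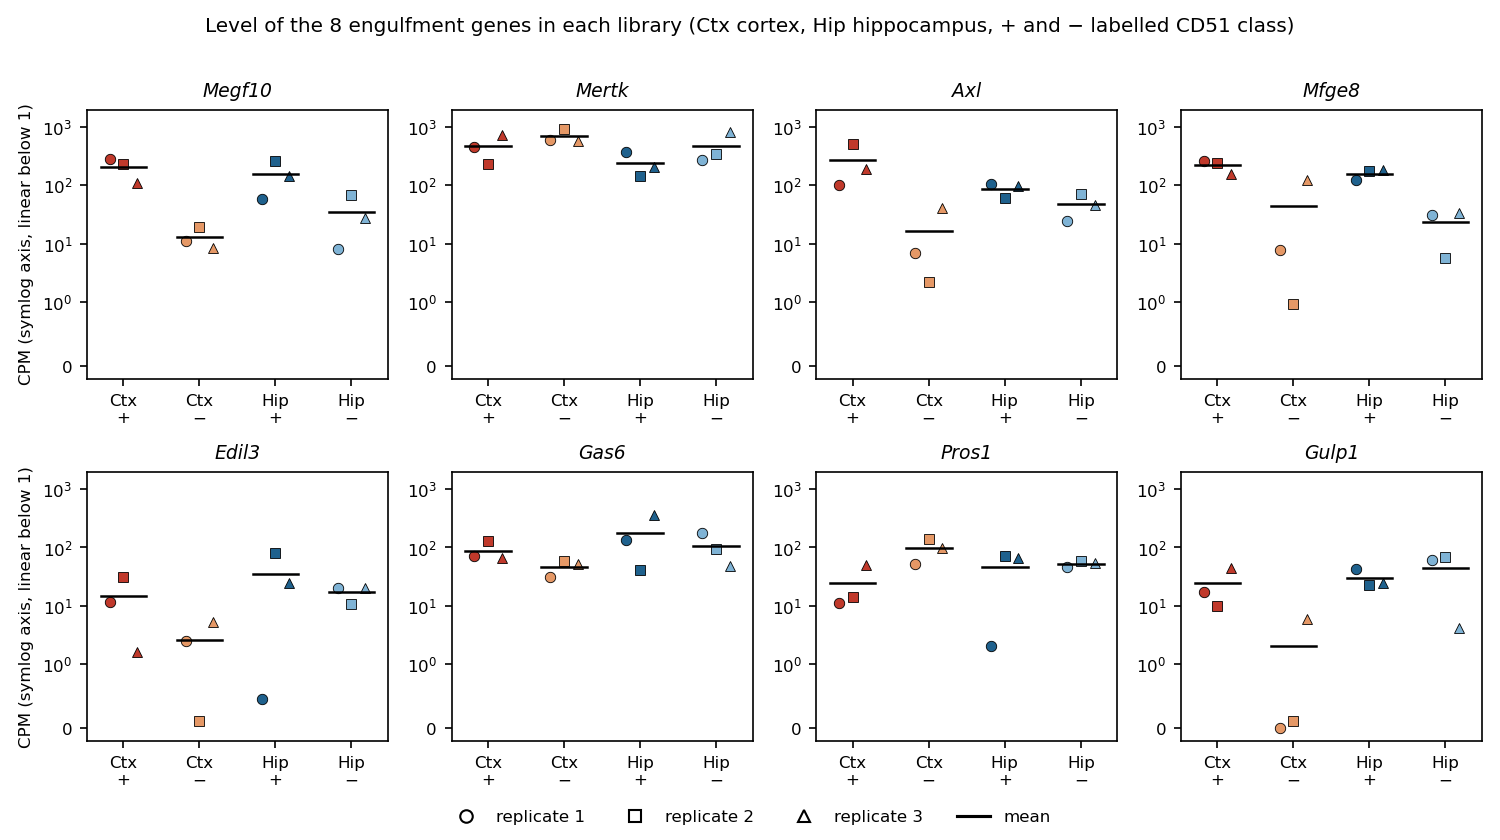
CPM of each of the 8 genes (symlog axis, linear below 1) in the 12 libraries, with the replicate as the symbol and the group mean as a bar. In cortex every CD51+ library of Megf10 and Axl lies above every CD51- library, while Mertk lies between 142 and 919 CPM throughout.

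Mfge8 (ENSMUSG00000030605.15, chr7:79133768-79149060, minus strand), the RGD-bearing bridge to alpha-v integrins shown above, was at 259, 244 and 157 CPM in cortex CD51+ (220 ± 55.2) and at 7.68, 0.959 and 126 CPM in cortex CD51- (44.8 ± 70.3). The hippocampal values were 122, 174 and 180 CPM in CD51+ (159 ± 32.0) and at 30.7, 5.76 and 33.8 CPM in CD51- (23.4 ± 15.4). It was the only one of the 8 genes whose classes were separate in both regions: each CD51+ library exceeded each CD51- library of its region. Neither difference passed edgeR, at log2 fold changes of 2.29 ± 1.07 in cortex (unadjusted p = 0.0432, adjusted p = 0.144) and 2.76 ± 1.09 in hippocampus (unadjusted p = 0.0188, adjusted p = 0.162). The cortical value rested on cortex CD51- replicate 3, which had the highest pan-astrocyte sum of its group (16818 CPM, against 6213 and 6388). Without that library the log2 fold change was 5.6 with an adjusted p of 0.00155, and limma-voom on all libraries gave 4.61 with an adjusted p of 0.0139. The part of astrocyte RNA in that library's Mfge8 level was not tested.

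Edil3 (ENSMUSG00000034488.14, chr13:88821472-89323223, plus strand), the other RGD-bearing bridge, was scarce and uneven. It was at 11.6, 31.0 and 1.62 CPM in cortex CD51+ (14.7 ± 15), at 2.45, 0.120 and 5.25 CPM in cortex CD51- (2.61 ± 2.57), at 0.459, 79.4 and 24.8 CPM in hippocampus CD51+ (34.9 ± 40.4) and at 20.1, 10.5 and 20.2 CPM in hippocampus CD51- (16.9 ± 5.58). The cortical classes overlapped because CD51+ replicate 3 lay below CD51- replicates 1 and 3. The hippocampal classes overlapped as well, and hippocampus CD51+ held both the highest library of the 12 and the second lowest, the latter resting on 2 counts. The log2 fold changes were 2.50 ± 1.71 in cortex (edgeR adjusted p = 0.336) and 1.04 ± 1.63 in hippocampus (adjusted p = 0.822), neither of which passed.

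Of the RGD-binding receptors themselves, Itgav, which encodes CD51, stood at 584 ± 274 CPM in cortex CD51+ against 311 ± 56.7 in CD51- and at 369 ± 44.4 against 381 ± 172 CPM in hippocampus. Its log2 fold changes were 0.91 ± 0.55 (edgeR adjusted p = 0.269) and -0.04 ± 0.55 (adjusted p = 0.984). Of the beta chains that pair with alpha-v, Itgb5 was at 23.2 ± 11.7 CPM in cortex CD51+ against 112 ± 33.3 in CD51-. Its log2 fold changes were -2.27 ± 0.84 in cortex (edgeR adjusted p = 0.0731) and 0.06 ± 0.80 in hippocampus (adjusted p = 0.985). Itgb3 had 0 counts in cortex CD51+ and 232 in CD51- (adjusted p = 0.0670). Its hippocampal log2 fold change was -4.39 ± 2.48 (adjusted p = 0.368). Neither the RGD-bearing bridges nor these receptor genes thus passed the edgeR test between the classes. Those classes were sorted by the CD51-Flp reporter, which marks past Flp activity, and not by the level of CD51.

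Gas6 (ENSMUSG00000031451.6, chr8:13465374-13494490, minus strand), the ligand of the TAM receptors, was at 72.5, 128 and 65.5 CPM in cortex CD51+ (88.6 ± 34.0) and at 30.7, 57.5 and 51.9 CPM in cortex CD51- (46.7 ± 14.1). The cortical classes did not overlap but lay close, with a log2 fold change of 0.92 ± 0.80 (edgeR adjusted p = 0.464). The hippocampal values were 132, 41.3 and 364 CPM in CD51+ (179 ± 167) and at 180, 95.4 and 48.6 CPM in CD51- (108 ± 66.8), overlapping throughout, with a log2 fold change of 0.73 ± 0.80 (adjusted p = 0.721). That value turned to -0.35 without hippocampus CD51+ replicate 3. Gas6 shares 34 exon bases with Tmem255b on the opposite strand, which strandless counting cannot separate, but Tmem255b had 0 counts in the 12 libraries.

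Pros1 (ENSMUSG00000022912.8, chr16:62854307-62929346, plus strand), the gene of protein S, was at 10.9, 14.4 and 49.3 CPM in cortex CD51+ (24.9 ± 21.2) and at 52.6, 141 and 96.3 CPM in cortex CD51- (96.5 ± 44.0). It was the only one of the 8 genes with every cortical CD51+ library below every CD51- library, though the nearest pair differed by little. The log2 fold change of -1.96 ± 1.06 did not pass (edgeR unadjusted p = 0.0781, adjusted p = 0.211). In hippocampus CD51+ it was at 2.06, 71.6 and 67.0 CPM (46.9 ± 38.9), the first of these from 9 counts, and in hippocampus CD51- at 45.6, 57.7 and 53.3 CPM (52.2 ± 6.13). The log2 fold change there was -0.15 ± 1.02 (adjusted p = 0.968), and 0.41 without hippocampus CD51+ replicate 1.

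The 2 TAM ligands were also compared within each library, per kilobase of exon. In cortex CD51+ the level of Gas6 was 10.7, 14.3 and 2.13 times that of Pros1, and in cortex CD51- it was 0.937, 0.657 and 0.865 times that level. Gas6 therefore exceeded Pros1 in all 3 cortical CD51+ libraries and in none of the 3 CD51- libraries. In hippocampus the ratio was 103, 0.925 and 8.72 in CD51+ and 6.35, 2.65 and 1.46 in CD51-, and the classes overlapped.

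In cortex 5 of the 8 genes had all CD51+ libraries above all CD51- libraries (Megf10, Axl, Mfge8, Gas6 and Gulp1), where 15.1% of all tested genes did, and 1 (Pros1) lay wholly below, where 16.6% did. At an unadjusted p under 0.05 edgeR had 4 of the 8 genes in cortex, beside 31.9% of all genes. In hippocampus edgeR called 0 of the 8 genes at the adjusted threshold, where 3.31% of all genes passed (0.618% higher and 2.70% lower). At an unadjusted p under 0.05 it had 2 of the 8, Megf10 and Mfge8, beside 19.1% of all genes, and DESeq2 and limma-voom also called 0 at their adjusted thresholds. Mfge8 alone had non-overlapping classes there, where 10.5% of all genes lay wholly above. The median log2 fold change of the 8 in hippocampus was 0.81, against -0.22 over all genes.

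**Figure D3:**
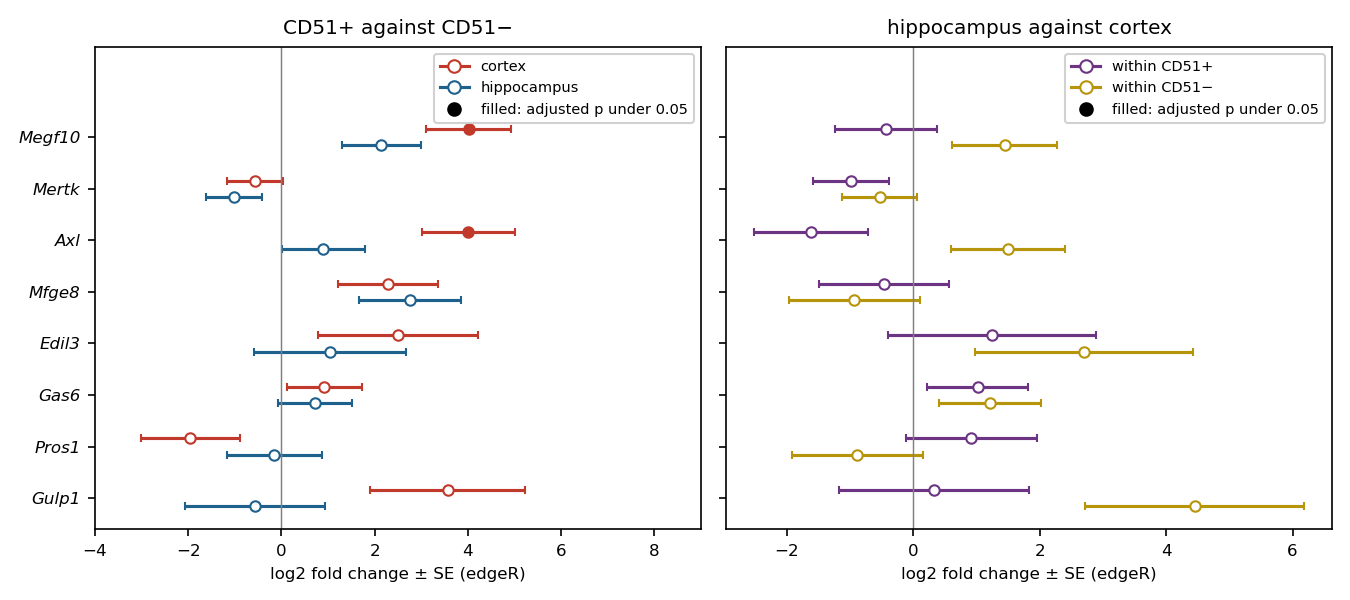
Log2 fold change ± SE from edgeR for the 8 genes, between the labelled classes in each region (left) and between the regions in each class (right), with filled points for an adjusted p under 0.05. The filled points are Megf10 at 4.02 and Axl at 4.01, both between the classes in cortex.

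Whether the difference between the classes itself differed between the regions was tested as an interaction. By edgeR no gene of the 12613 passed (0%), and 0 of the 8 passed with DESeq2 or limma-voom either. At an unadjusted p under 0.05 edgeR had 1 of the 8, Axl, beside 12.6% of all genes. For Axl the difference in hippocampus was lower than that in cortex by 3.11 ± 1.28 log2 units, with an edgeR unadjusted p of 0.0233 and an adjusted p of 0.320. Megf10, called in cortex and not in hippocampus, had an interaction of -1.88 ± 1.16 (adjusted p = 0.521), so its 2 regional differences were not shown to differ. Gulp1 had the widest interaction in size, -4.13 ± 2.21 (adjusted p = 0.446).

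Averaging the regions allowed an exact test for each gene that the single regions are too small for. The difference in log2(CPM + 1) between the classes was averaged over cortex and hippocampus and compared with all 400 arrangements of the class labels within the regions, two-sided, where the smallest possible p is 0.005. Mfge8 was higher in CD51+ by 3.54 (exact p = 0.005), Megf10 by 3.10 (exact p = 0.01) and Axl by 2.69 (exact p = 0.01), with 6 of 6 CD51+ libraries above the mean of their region's CD51- libraries for each of these 3 genes. Without cortex CD51- replicate 2 the Mfge8 value was 2.86 and without cortex CD51- replicate 3 it was 4.36, both at an exact p of 0.005. Of all 12613 tested genes 30.3% had an exact p under 0.05 on this measure (12.9% higher and 17.4% lower), beside 3 of the 8, all higher. The other values were 1.74 for Gulp1 (exact p = 0.12), 0.78 for Edil3 (exact p = 0.5), 0.65 for Gas6 (exact p = 0.255), -0.82 for Mertk (exact p = 0.07) and -1.60 for Pros1 (exact p = 0.1). For Mertk and Pros1 the side of the threshold changed when single libraries were left out. Leaving out a library makes the classes of its region unequal in size and leaves fewer than the 400 arrangements. An exact p with a library left out, here and below, is therefore not strictly comparable with that of all libraries. Mertk was at -1.02 (exact p = 0.025) without cortex CD51+ replicate 3 and at -1.0 (exact p = 0.045) without hippocampus CD51+ replicate 1. Pros1 was at -1.99 without hippocampus CD51+ replicate 2 and at -1.97 without replicate 3, each at an exact p of 0.035. These p-values are unadjusted, from 16 such tests in all (8 on levels and 8 on ratios), on genes chosen with earlier results of these data known.

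A separate measure set each gene against the pan-astrocyte sum of its own library. That sum was itself higher in CD51+ by 2.51 log2 units averaged over the regions (3.15 in cortex and 1.87 in hippocampus), so a gene with equal CPM in the classes would give a ratio difference of -2.51, and the median over all tested genes was -2.57. On this measure 63.6% of all tested genes had an exact p under 0.05 (63.2% lower and 0.373% higher), beside 3 of the 8, all lower. Per 1000 CPM of pan-astrocyte RNA, Megf10 stood at 4.22, 3.02 and 1.24 in cortex CD51+ and at 1.78, 3.02 and 0.503 in cortex CD51-. In hippocampus it stood at 1.08, 3.71 and 2.22 in CD51+ and at 0.494, 3.55 and 1.74 in CD51-. The classes overlapped in both regions on this scale, and the averaged log2 difference was 0.59 (exact p = 0.37). Axl gave 0.18 (exact p = 0.785) and Mfge8 1.03 (exact p = 0.25), although without cortex CD51- replicate 3 Mfge8 gave 1.62 (exact p = 0.005). Of the 3 genes with a higher averaged level in CD51+, none thus had an exact p under 0.05 relative to astrocyte markers with all libraries in place.

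The 3 genes with lower ratios in CD51+ were Pros1, Mertk and Gas6. Their exact p-values and the separation of the classes include the difference of the pan-astrocyte sum, so no lower level of a gene is read from them. The share of all tested genes without overlap on this scale was not counted. Pros1 stood at 0.161, 0.184 and 0.557 per 1000 pan-astrocyte CPM in cortex CD51+, against 8.46, 22.0 and 5.72 in CD51-. In hippocampus it stood at 0.0377, 1.0 and 1.04 against 2.77, 2.94 and 3.32. Each CD51- library was above each CD51+ library of its region, and the averaged log2 difference was -4.11 (exact p = 0.005), or -3.41 without hippocampus CD51+ replicate 1. Mertk stood at 6.68, 2.99 and 8.30 against 95.6, 144 and 35.0 in cortex and at 6.73, 1.99 and 3.19 against 16.6, 17.7 and 51.9 in hippocampus, again without overlap. Its averaged log2 difference was -3.33 (exact p = 0.005), and that of Gas6 was -1.85 (exact p = 0.015). The value of Gas6 is smaller in size than the 2.51 of the pan-astrocyte sum, and those of Mertk and Pros1 are larger by the 0.82 and 1.60 that their levels gave above, which did not pass. Microglial and border macrophage sums were higher in every CD51- library, and their part in the ratios of Pros1, Mertk and Gas6 was not tested. Edil3 gave -1.73 (exact p = 0.095) and Gulp1 -0.76 (exact p = 0.335).

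**Figure D4:**
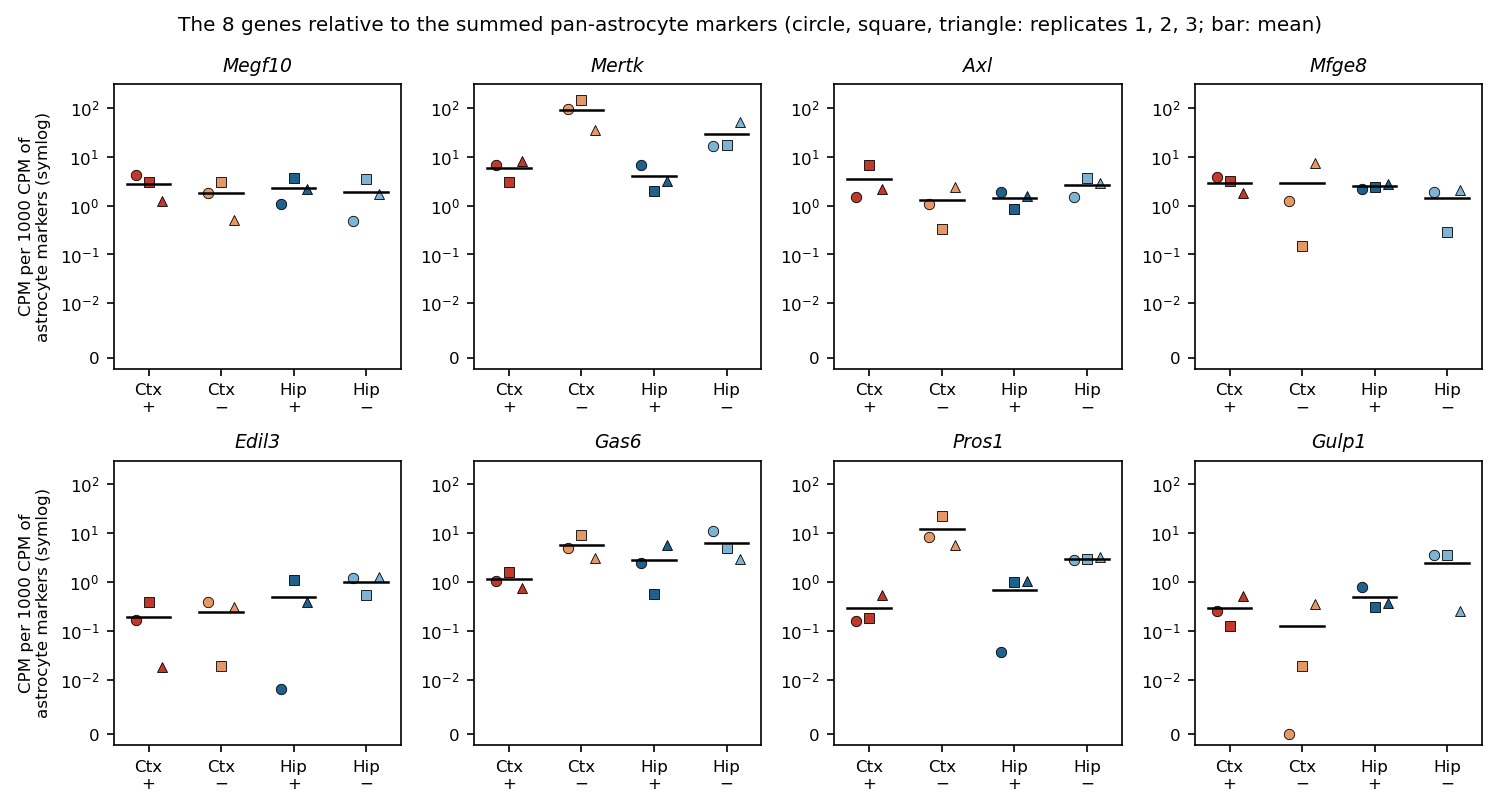
CPM of each of the 8 genes per 1000 CPM of summed pan-astrocyte markers (symlog axis), by library, with the group mean as a bar. Megf10 overlaps between the classes on this scale, while Mertk and Pros1 lie lower in every CD51+ library than in every CD51- library of the same region.

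Between the regions, none of the 8 genes passed the edgeR test. The regions differed in ependyma and choroid plexus markers, led by Ttr. These summed to 449 to 2076 CPM in hippocampus CD51+ against 24.4 to 83.1 CPM in cortex CD51+. In CD51- they summed to 1259 to 5589 CPM in hippocampus against 58.2 to 437 CPM in cortex. Their part in the regional values below was not tested. Within CD51+, edgeR called 0 of the 8 at the adjusted threshold, where 0.0396% of all genes passed, and 0 of the 8 at an unadjusted p under 0.05, where 11.8% did. DESeq2 and limma-voom called 0 as well. The log2 fold changes of hippocampus against cortex ran from -1.62 ± 0.91 for Axl (adjusted p = 0.517) to 1.24 ± 1.64 for Edil3 (adjusted p = 0.888), and the regions overlapped for all 8 genes, where 13.5% of all genes had regions that did not. Within CD51-, edgeR again called 0 of the 8, where 0% of all genes passed, and had 1 at an unadjusted p under 0.05, where 13.2% did. That gene was Gulp1, at 59.9, 68.9 and 4.17 CPM in hippocampus and 0, 0.120 and 5.98 CPM in cortex. Its log2 fold change was 4.45 ± 1.74 (unadjusted p = 0.0172, adjusted p = 0.274), and DESeq2 called it at 4.34 with an adjusted p of 0.0323. Edil3 was the only gene with non-overlapping regions in CD51-, higher in hippocampus by 2.70 ± 1.73 (adjusted p = 0.578), where 10.4% of all genes lay wholly above.

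Levels of different genes were compared per kilobase of exon. Over the 12 libraries Mertk averaged 109 CPM per kilobase, Gas6 41.5, Mfge8 23.8, Axl 21.0, Pros1 13.5, Megf10 13.4, Gulp1 6.69 and Edil3 1.26. In hippocampus CD51+ the mean of Gas6 was the higher, at 70.3 ± 65.4 CPM per kilobase (SD) against 55.0 ± 27.0 for Mertk. That lead came from replicate 3, with Gas6 at 364 CPM, while in replicates 1 and 2 Mertk was the higher per kilobase. Among the 4 groups the order of mean CPM was cortex CD51+, hippocampus CD51+, hippocampus CD51- and cortex CD51- for both Megf10 and Axl. Mfge8 had the same first pair, with cortex CD51- next and hippocampus CD51- last. Mertk and Pros1 had the reverse lead, with cortex CD51- first and hippocampus CD51- next. Edil3 and Gas6 were highest in hippocampus CD51+, and Gulp1 in hippocampus CD51-. Neighbours in these orders overlapped in every case but the last step for Gas6 and for Gulp1, where cortex CD51+ lay wholly above cortex CD51-.

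The genes most like each of the 8, by Pearson's r of log2(CPM + 1) over the 12 libraries among 8567 genes, are given as a description. The 12 libraries share the division by class, region and marker level, and genes are not independent. Mfge8 was most like Ece1 (r = 0.96) and Hepacam (r = 0.95), the latter an astrocyte adhesion gene on the pan-astrocyte list. Axl was most like Asap2 (r = 0.96) and Gabra2 (r = 0.94), and Megf10 like Fam19a5 (r = 0.94) and Abat (r = 0.92), of which Abat encodes the GABA-degrading transaminase. Pros1 was most like Sgpl1 (r = 0.92) and Dnm2 (r = 0.88), and Mertk like Nfxl1 (r = 0.90) and Smg1 (r = 0.90). Gulp1 paired with Fam184a (r = 0.92) and Cdh10 (r = 0.92), Edil3 with Fam45a (r = 0.91) and Zfp27 (r = 0.89), and Gas6 with Yipf3 (r = 0.89) and Cenpq (r = 0.89). Among the 8 themselves the closest pair was Axl and Mfge8 (r = 0.81) and the most opposed was Mertk and Edil3 (r = -0.71).

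The rest of the engulfment pathway was followed in 4 lists with 74 genes, of which 55 were tested. Among 23 other engulfment receptors 13 were tested. In cortex 0 were higher and 3 lower in CD51+, and in hippocampus 0 higher and 2 lower, with median log2 fold changes of -3.59 and -3.08. For this and the other lists, all tested genes had 5.05% higher and 6.27% lower in cortex. In hippocampus they had 0.618% higher and 2.70% lower. Their medians were -0.03 in cortex and -0.22 in hippocampus. Stab1, a scavenger receptor of macrophages, was at 0.234 ± 0.150 CPM in cortex CD51+ against 224 ± 50.5 in CD51- (log2 fold change -9.87 ± 1.29, edgeR adjusted p = 6.02e-05) and at 0.606 ± 0.576 against 104 ± 34.7 CPM in hippocampus (-7.46 ± 1.16, adjusted p = 0.000504). The hippocampal value was -8.28 without CD51+ replicate 1 and -6.83 without CD51+ replicate 2, and both kept the call. Havcr2 (TIM-3) was lower in both regions as well, by -5.59 ± 1.4 in cortex (adjusted p = 0.0119) and -4.99 ± 1.36 in hippocampus (adjusted p = 0.0429). Leaving out cortex CD51+ replicate 2 gave -8.87 in cortex, and leaving out hippocampus CD51+ replicate 3 gave -8.99 in hippocampus. Cd36 had 0 counts in cortex CD51+ and 439 in cortex CD51-, which makes it at least 101-fold lower against a floor of 3 counts over the group (adjusted p = 0.0407). Most of those counts, 348, came from cortex CD51- replicate 2 at 41.7 CPM, with 7.59 and 0.146 CPM in the other libraries, and without it the bound was 30.3-fold. The Cd36 call was lost without any 1 of the 3 cortex CD51+ libraries, cortex CD51- replicate 2 or hippocampus CD51- replicate 2 (adjusted p up to 0.122). In hippocampus the Havcr2 call was lost without CD51+ replicate 1 or 2 or CD51- replicate 1 (adjusted p up to 0.133). It was also lost with upper-quartile factors (edgeR adjusted p = 0.0506). The direction of these called receptors is that of the microglial sums, and the part of microglial RNA in it was not tested. Among receptors called in neither region, Lrp1 and Adgrb1 lay wholly higher in CD51+ in both regions, and Itgb3 and Trem2 wholly lower. Of all tested genes 15.1% lay wholly higher and 16.6% wholly lower in cortex, and 10.5% wholly higher in hippocampus. The share separate in both regions was not counted. Itgb3 in cortex was separated by only 0.146 CPM in CD51- replicate 3 against 0 in CD51+. Trem2 in hippocampus was separated by 24.4 CPM in CD51- against 20.8 CPM in CD51+. The log2 fold changes in cortex and hippocampus were 1.47 ± 0.63 and 1.48 ± 0.63 for Lrp1 (edgeR adjusted p = 0.111 and 0.191). For Adgrb1 they were 3.14 ± 1.43 and 2.03 ± 1.37 (edgeR adjusted p = 0.134 and 0.483).

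Among 15 other bridging and tagging proteins 10 were tested, with 2 higher in cortex and 0 called in hippocampus. Clu (clusterin), a secreted chaperone abundant in astrocytes, was at 2703 ± 663 CPM in cortex CD51+ against 286 ± 301 in CD51- (3.24 ± 0.64, edgeR adjusted p = 0.00217), and at 4.48 log2 units without cortex CD51- replicate 3. Cd47, the protecting signal that restrains phagocytes, was at 237 ± 140 against 40.2 ± 17.1 CPM (2.56 ± 0.74, adjusted p = 0.0282), a call lost without any 1 of the cortical libraries other than CD51+ replicate 1 (adjusted p up to 0.135). The Cd47 call was also lost without the filter (adjusted p = 0.0721), with the replicate number as a block (0.0551) and with only the 2 groups compared in the fit (0.0655). The list's median was -0.24 in cortex and -0.12 in hippocampus, against -0.03 and -0.22 over all tested genes.

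Among 24 signalling and membrane genes 23 were tested. In cortex 2 were higher and 4 lower, and in hippocampus 0 higher and 4 lower. The medians were -0.26 and -0.18, against -0.03 and -0.22 over all tested genes. The same 4 genes were lower in both regions: Elmo1, Dock2, Vav1 and Tgm2. Elmo1 encodes a scaffold and Dock2 the Rac activator of blood-lineage cells that it binds, and Elmo1 fell by 6.87 ± 1.03 log2 units in cortex (edgeR adjusted p = 0.0002) and by 4.68 ± 0.93 in hippocampus (adjusted p = 0.00464), where the log2 fold change was -6.03 without hippocampus CD51+ replicate 3. Vav1 had 1 count in cortex CD51+ and 1975 in CD51-, which is 1364 times lower (244 to 53894 at 95% by counting error), and was at least 330-fold lower in hippocampus. Elmo1 and Vav1 kept their calls in both regions under all 21 alternatives, while Dock2 and Tgm2 did not. The Dock2 call was lost without cortex CD51+ replicate 3 (adjusted p = 0.0650 by edgeR) and, in hippocampus, without CD51+ replicate 1 or 3 or CD51- replicate 2 (adjusted p up to 0.108). Tgm2, a transglutaminase, had 2 counts in cortex CD51+ and 1289 in CD51- and was at least 93.8-fold lower in hippocampus, with the call lost without replicate 2 of either cortical class (adjusted p up to 0.0733) or, in hippocampus, without any 1 of the CD51+ libraries or CD51- replicate 3 (adjusted p up to 0.111). Nckap1, a subunit of the WAVE complex that drives actin assembly, was higher in cortex at 490 ± 169 against 77.8 ± 69.8 CPM (2.65 ± 0.74, adjusted p = 0.0237), a call lost without cortex CD51+ replicate 3 or cortex CD51- replicate 2 (adjusted p up to 0.0643), while without cortex CD51- replicate 1 it was 3.56. Vav3 had 259 counts in cortex CD51+ and 0 in CD51- (at least 125-fold higher, adjusted p = 0.0335), a call lost without any 1 of the 6 cortical libraries (adjusted p up to 0.0949).

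Among 12 genes of phosphatidylserine exposure 9 were tested, with 1 higher and 1 lower in cortex and 0 called in hippocampus. The medians were 0.43 and 0.31, against -0.03 and -0.22 over all tested genes. Atp8a2, a lipid flippase subunit, was at 0.271 ± 0.469 CPM in cortex CD51+ against 111 ± 40.4 in CD51- (-8.72 ± 1.91, edgeR adjusted p = 0.00483). All 4 of its counts in cortex CD51+ were in replicate 3, so without that library the group was at 0 and the fitted value of -12.9 is no bound, while without CD51+ replicate 2 it was -8.09. Xkr6, of the Xkr family that includes lipid scramblases, was called higher in cortex from 1 library. That was cortex CD51+ replicate 3 at 38.8 CPM, with 0 and 0.128 CPM in the other 2 and 0 in CD51-. The call was lost in 10 of 20 alternatives, with a log2 fold change of 2.49 (edgeR adjusted p = 0.496) without that library. In hippocampus Xkr6 was at 9.63, 28.6 and 14.2 CPM in CD51+ against 0.164, 0.0929 and 0 CPM in CD51-, the latter from 3 counts. The classes did not overlap there, but the log2 fold change of 7.43 ± 2.81 did not pass (edgeR unadjusted p = 0.0152, adjusted p = 0.148). Between the regions 0 genes of the 4 lists were called by edgeR in either class, where 0.0396% of all genes passed in CD51+ and 0% in CD51-. Over the 4 lists 13 of the 55 tested genes were called in cortex, where 11.3% of all genes were, and 7 without cortex CD51+ replicate 3. In hippocampus 6 of the 55 were called, where 3.31% of all genes were, and 3 without hippocampus CD51+ replicate 1.

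**Figure D5:**
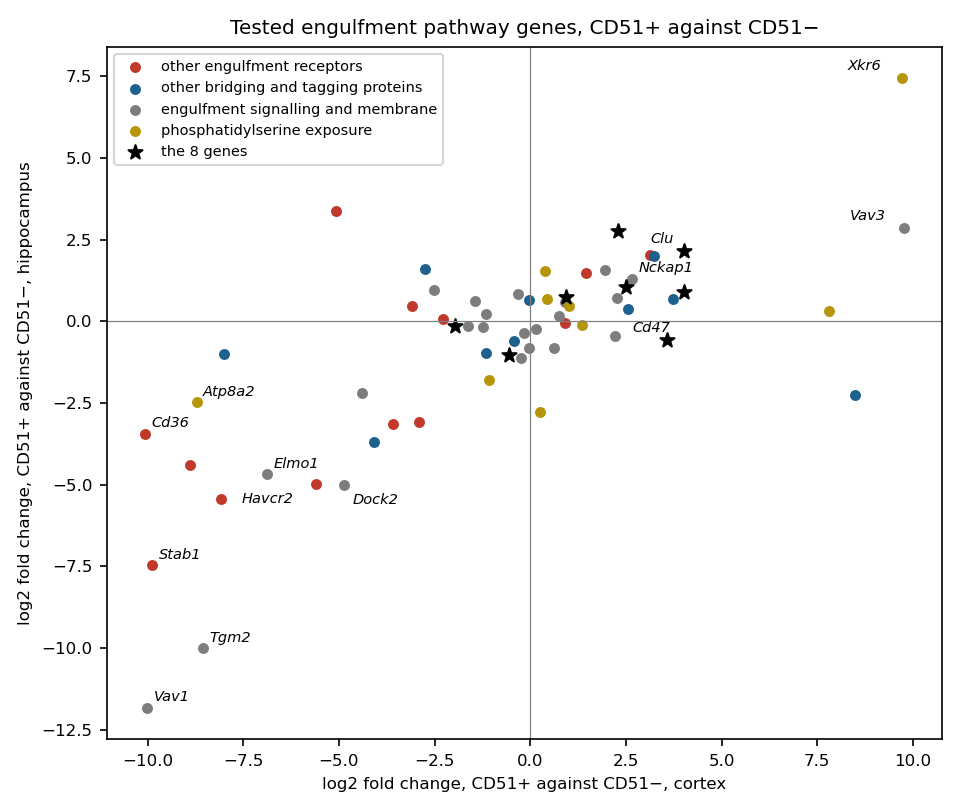
Log2 fold change between the labelled classes in cortex (x axis) and hippocampus (y axis) for the 55 tested pathway genes, coloured by list, and for the 8 genes as stars, with names on genes called in either region. Genes with few or no counts in a group, such as Vav1, Cd36 and Vav3, sit at fitted values that depend on the model and are not bounds.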

How the data were processed

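RNA of sorted mouse cells, titled astrocytes, was sequenced in 12 libraries. The deposited values are raw counts: per the file headers, featureCounts 2.0.4 counted read pairs over exons of GENCODE vM25 without strand. Per the submitters' processing notes, STAR and mm10 were used, with DESeq2 1.40.2 in the authors' own analysis. Symbols for 55141 of 55401 gene IDs, and transcripts, came from GENCODE vM21.

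Genes were filtered with filterByExpr (minimum count 10, minimum total 15) and tested with edgeR 4.0.16 (TMM, 4 group levels, 12 libraries, Benjamini-Hochberg 0.05; common dispersion 1.64). SE is the absolute log2 fold change over the square root of F. Alternatives used DESeq2 1.42.0, limma-voom (limma 3.58.1), other scalings and filters, a replicate block, the libraries of the groups compared, other pseudocounts and left-out libraries. The scripts were tested on simulated data. Intervals and floors cover counting error only. The text names the 8 genes, every called pathway gene, the 2 most similar genes per gene (mean of at least 5 CPM) and leading markers of cell type lists. It also names Itgav, Itgb5, Tyro3, Lrp1, Adgrb1, Itgb3 and Trem2, which were not called, the border macrophage markers Cd163 and Lyve1, and Tmem255b. Members, lists and tests were chosen with earlier results of these data known.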

Additional observations from a re-analysis of the deposited data

How the results depend on the processing

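Of 168 refits of the 8 genes in cortex (21 alternatives each), 163 kept direction and call, 1 lost the call, 4 gained one and 0 reversed. The number called, 2, ranged from 1 to 4 over left-out libraries: 1 without cortex CD51+ replicate 2 and 4 without cortex CD51- replicate 3. DESeq2 called 1 of the 8 between regions in CD51-, where edgeR called 0. The 3 ratios to pan-astrocyte markers with an exact p under 0.05 became 5 at a pseudocount of 5 CPM, with Edil3 at -1.87 (exact p = 0.015) and Gulp1 at -1.56 (exact p = 0.025), and Axl turned to -0.15. The 13 pathway calls in cortex became 23 with DESeq2 and ranged from 7 to 15 over left-out libraries. Over all genes, the 1428 calls in cortex became 3219 with DESeq2, 2164 with limma-voom and 879 to 1507 over left-out libraries, and the 418 in hippocampus became 1457, 885 and 198 to 559, or 636 without the filter.

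No member with a passing test reversed. Reversals in hippocampus between the classes were -0.36 (Edil3) and 0.078 (Gulp1) with limma-voom and 0.023 (Pros1) with upper-quartile factors, which moved the median of all genes from -0.22 to 0.01. With libraries left out, values ran from -0.42 to 1.62 (Edil3), -0.35 to 1.32 (Gas6) and -0.60 to 0.41 (Pros1). Between regions they ran from -0.23 to 2.41 (Edil3), -0.069 to 1.48 (Gas6) and -0.047 to 1.14 (Gulp1) in CD51+, and from -1.43 to 2.44 (Mfge8, 1.04 with limma-voom) in CD51-. The interaction ran from -0.92 to 0.23 (Mertk), -2.92 to 0.96 (Mfge8, -1.49 with limma-voom) and -1.25 to 0.39 (Gas6), and the Axl ratio from -0.13 to 0.46. The cause of these changes was not tested. With replicate number as a block, edgeR called the same number of the 8 genes in each comparison (2 in cortex), 1260 genes in cortex and 435 in hippocampus, and the Mfge8 interaction was -0.43. Among pathway genes the block ended the cortical calls of Cd47 (adjusted p = 0.0551), Cd36 (0.0678) and Xkr6 (0.139). A fit with only the groups compared ended those of Cd47, Nckap1 (0.0525) and, in hippocampus, Tgm2 (0.0531), and a fit without the filter those of Cd47 and Vav3 (0.0557). Upper-quartile factors ended the hippocampal call of Havcr2 (edgeR adjusted p = 0.0506). Same-numbered libraries of different groups did not deviate together (r from -0.05 to 0.03 over 18 pairs), so the numbers were not taken as pairs. Genes at a few counts, such as Edil3 and Gulp1 in cortex CD51-, are limited by depth.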
